A study of Mus musculus with 32 samples.

Results

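The genes described here encode the machinery of regulated exocytosis, the fusion of secretory vesicles with the plasma membrane, as measured in 3 cell types sorted from mouse islets, the insulin-producing β cells, the macrophages (MΦs) and the endothelial cells (ECs). Members were taken by gene symbol, by a rule set with earlier results of these data known, as the numbered members of the synaptotagmin (Syt), synaptotagmin-like (Sytl), VAMP, SNAP, syntaxin (Stx), syntaxin-binding (Stxbp), Rab3, Rab27, complexin (Cplx) and Munc13 (Unc13) families. The rule found 65 of the 22850 genes in the table, namely 17 synaptotagmins, 5 synaptotagmin-like genes, 6 VAMPs, 3 SNAPs, 15 syntaxins, 5 syntaxin-binding genes, 6 Rab3 and Rab27 genes, 4 Munc13 genes and 4 complexins. Of these, 63 reached a mean score of at least 20 in 1 or more of the 9 groups, while Cplx4 and Syt17 did not. That level was reached by 62 members in β cells, by 53 in ECs and by 58 in MΦs.

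Vesicle fusion is driven by SNARE proteins: a VAMP on the vesicle zips together with a syntaxin and a SNAP protein on the target membrane. Rab3 and Rab27 GTPases on the granule bring it to the membrane through effectors such as the synaptotagmin-like proteins, syntaxin-binding (Munc18) and Munc13 proteins prepare the SNAREs, complexins hold them in a poised state, and synaptotagmins sense the calcium that triggers release. β cells release insulin granules by this route with a set of proteins shared with neurons, ECs release Weibel-Palade bodies, and MΦs use related proteins for lysosome-related and recycling vesicles.

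All mice carried 3 transgenes, RIP-rtTA, TetO-VEGF-A and MIP-GFP, so that the rat Ins2 promoter drove the doxycycline (Dox) dependent activator, Dox switched on human VEGF-A165 in β cells, and the mouse Ins1 promoter marked β cells with GFP. The 32 samples came from adult mice without Dox (No Dox), after 1 week of Dox (1wk Dox) and 1 week after its withdrawal (1wk WD), and the No Dox mice carried the same transgenes. β cells were sorted as GFP+, CD31- and CD11b-, ECs as CD31+ and MΦs as CD11b+, from islets of several mice pooled for each sample, and RNA was amplified before sequencing as 50-base read pairs. β cells had 4 samples without Dox, 5 after 1wk Dox and 3 after withdrawal, ECs had 4, 1 and 5, and MΦs 4, 2 and 4. No label tied the samples to separate animals, so p-values measured only the spread between samples. Column names of both MΦ 1wk Dox samples, the EC 1wk Dox sample and β cell 1wk WD replicate 3 carried a separate number series. What this series stands for is not stated, and in MΦs and ECs it cannot be told apart from Dox. Values are the authors' normalized expression scores, in which 1 is the lowest entry, and sample sums ran from 23465985 to 53441769. Tests used log2(score + 1), which understates the change of low genes, and a gene counted as called at a fold change of at least 2 and a limma adjusted p under 0.05 over all genes tested. In a list of scores the replicates are in the order of their labels, which carries no meaning.

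Each sort was led by its own markers, but the No Dox libraries differed in RNA of other cells. The mean log2(score + 1) of 10 β cell markers was 12.9 to 16.2 in the β cell samples and 9.2 or less elsewhere. In β cell No Dox replicates 3 and 4 and MΦ No Dox replicate 2, 8 acinar markers made up 23.8%, 20.8% and 20.5% of all signal, against 0.0707% to 5.08% in the other No Dox samples. Pericyte and stromal markers averaged 5.2 and 4.3 (log2) in β cell No Dox replicates 1 and 2 but 13.0 and 14.6 in replicates 3 and 4, and 12.2 to 14.1 with Dox and 10.5 to 14.4 after withdrawal. EC markers in β cell samples reached 12.2 in 1wk Dox replicate 1. Markers of α, δ and PP cells averaged 9.1 to 11.5 (log2) in the No Dox β cell samples. No other endocrine cell was sorted, so β cell levels are set against ECs and MΦs only. In bulk samples fewer cells of a type and less RNA per cell cannot be told apart. Results are also given without the 3 acinar-rich libraries where that changes them.

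Cell type, more than time point, separated the members. At No Dox the mean score of 32 of the 63 tested members was highest in β cells, of 10 in ECs and of 21 in MΦs. Between β cells and ECs 33 of 63 members were called, 26 higher in β cells and 7 higher in ECs, where 37.7% of all genes tested were called (21.2% and 16.5% in the same directions). Between β cells and MΦs 34 members were called, 25 higher in β cells and 9 higher in MΦs, beside 43.2% of all genes (23.5% and 19.7%). ECs and MΦs differed in 28 members, 15 higher in ECs and 13 in MΦs, beside 33.5% (15.9% and 17.6%). The median member was 0.60 (log2) higher in β cells than in ECs, where the median of all genes was 0.07. Against MΦs these medians were 0.48 and 0.12, and between ECs and MΦs -0.29 and -0.01. Samples of the 2 groups did not overlap for 37 members between β cells and ECs, 34 between β cells and MΦs and 30 between ECs and MΦs, beside 48.8%, 43.9% and 49.8% of all genes. Read against all genes, the tested members were called more often in each of the 3 comparisons, and in both comparisons of β cells the excess lay with members higher in β cells and not with those lower there. Without the 3 acinar-rich libraries 37, 37 and 29 members were called in the 3 comparisons (58.7%, 58.7% and 46.0% of those tested), beside 46.6%, 51.1% and 39.0% of all genes. This is a description of the tested members, and no test of the list was made.

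**Figure D1:**
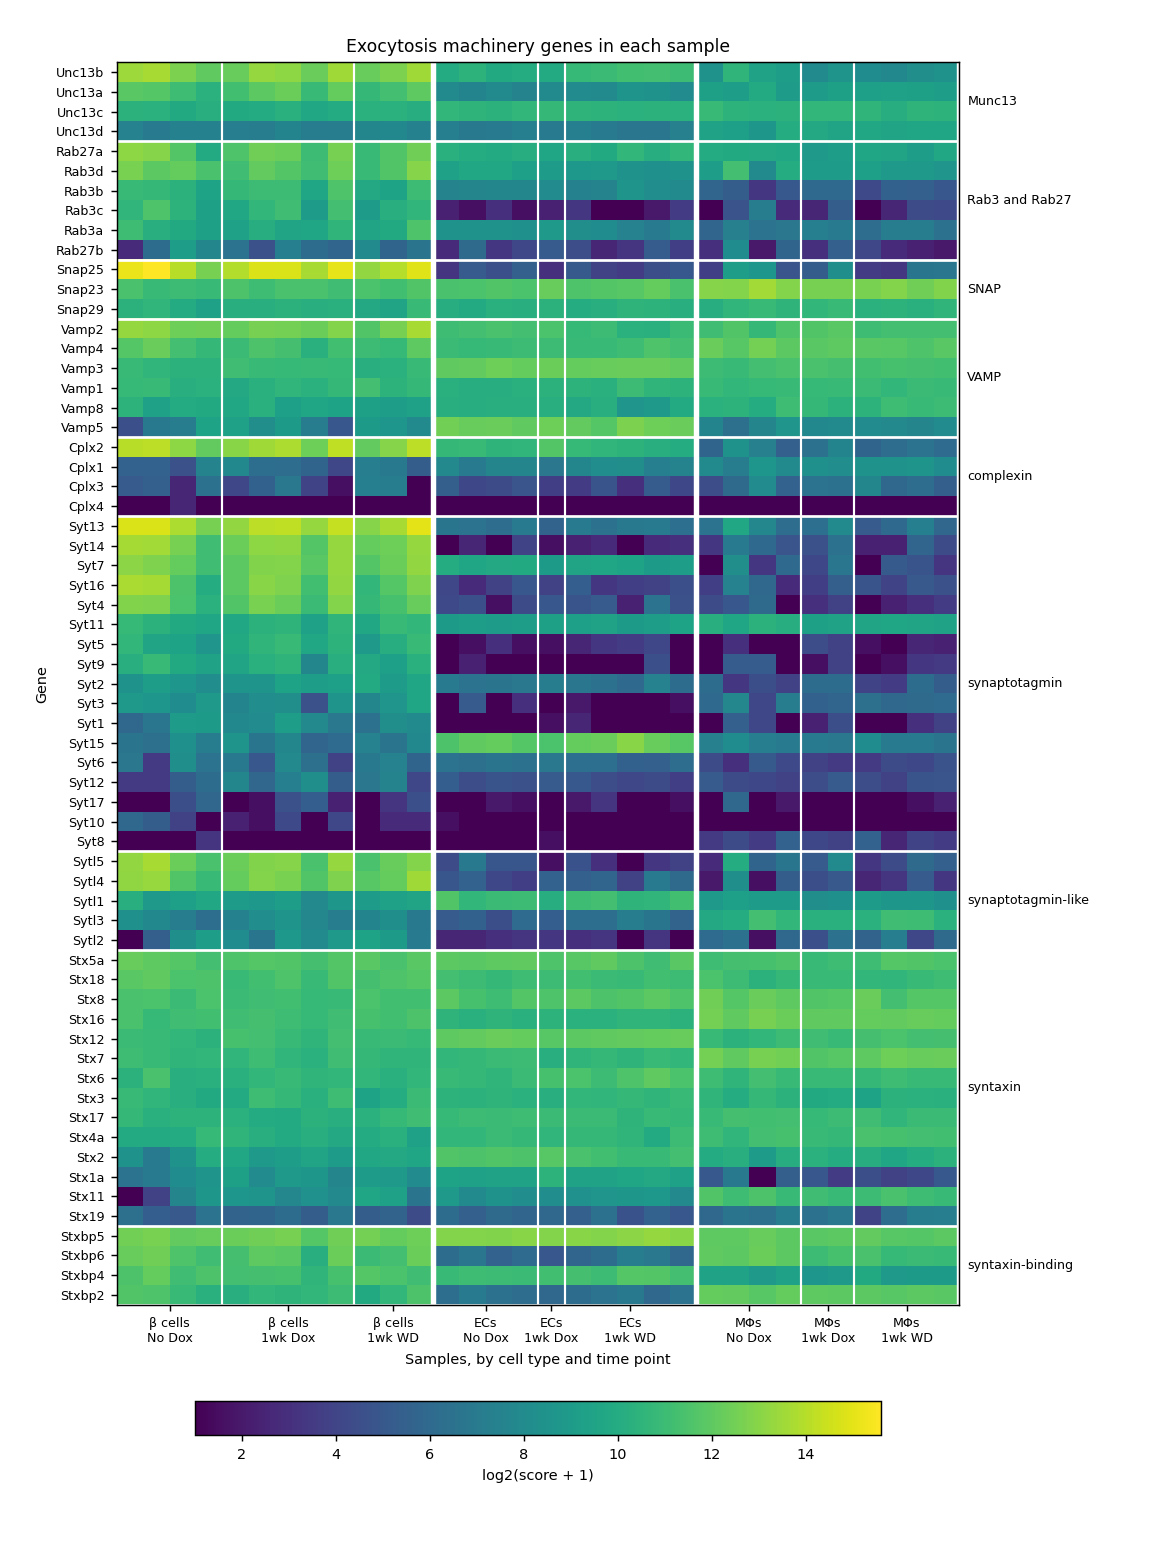
Heat map of log2(score + 1) for 63 of the 65 members (rows, by family) in the 32 samples (columns, by cell type and time point, separated by white lines). β cell columns are brightest for Snap25, Syt13, Syt14, Cplx2 and Unc13b, EC columns for Vamp5 and Syt15 among the rows that are dark elsewhere, and MΦ columns for Stx7, Snap23 and Stx16.

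The 3 SNAP genes each had a different pattern. Snap25 (mm9 chr2:136539189-136608164), the plasma membrane SNARE of neurons and endocrine cells, scored 37344, 49801, 16845, and 6162 in the No Dox β cells, 8, 35, 23, and 43 in ECs and 12, 592, 408, and 28 in MΦs. The β cell samples lay above all others, yet differed among themselves, and were lowest in the acinar-rich replicates 3 and 4. Snap25 was higher in β cells than in ECs (log2 fold change 9.76 ± 1.17 (SE), limma adjusted p = 3.52e-05) and than in MΦs (log2 fold change 7.74 ± 1.17 (SE), limma adjusted p = 0.000168). Its mean in MΦs was 0.944% of that in β cells and in ECs 0.0990%, while the 10 β cell markers were at 0.128% to 1.86% in MΦs and 0.0251% to 1.47% in ECs, and the part of carried-over β cell RNA in these low scores was not tested. Snap23, the widely expressed relative, was instead highest in MΦs, with 2757, 1848, 2045, and 1932 in β cells against 2683, 2818, 3210, and 2851 in ECs and 7948, 7658, 12107, and 7660 in MΦs. Every MΦ sample was above every β cell and EC sample (log2 fold change -2.03 ± 0.18 (SE), limma adjusted p = 2.93e-06, β cells minus MΦs). Snap29, which acts on intracellular membranes including autophagosomes, had means of 1144, 1118 and 1500 in the 3 cell types and was called in no comparison.

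Among the vesicle SNAREs, Vamp2 was the β cell form, Vamp3 and Vamp5 the EC forms, and the Vamp8 scores of the 3 cell types overlapped. Vamp2, which serves insulin granules, scored 9964, 8773, 5428, and 5442 in No Dox β cells against 2126, 2407, 2726, and 2410 in ECs and 2208, 3241, 1667, and 3102 in MΦs. All β cell values were above all others, with a log2 fold change of 1.57 over ECs and 1.53 over MΦs (limma adjusted p = 0.000316 and 0.000311). Vamp3, a SNARE of recycling endosomes, scored 4233, 4339, 5372, and 4507 in ECs, 1799, 1542, 1314, and 1344 in β cells and 2058, 1885, 2445, and 2748 in MΦs, and ECs were above both without overlap (-1.63 for β cells minus ECs, limma adjusted p = 6.75e-06, and 1.02 for ECs minus MΦs, limma adjusted p = 0.000197). The Vamp3 difference between ECs and MΦs fell to just under 2-fold (log2 0.94 to 0.98) in 5 of 17 alternatives, among them the fit without the 3 acinar-rich libraries. Vamp5, first known from muscle, had scores of 5857, 4748, 5004, and 4267 in ECs, 23, 121, 140, and 708 in β cells and 188, 82, 203, and 394 in MΦs. ECs were above both without overlap, with a log2 fold change of 4.71 for ECs minus MΦs and -5.24 for β cells minus ECs (limma adjusted p = 0.000484 and 0.000229). The β cell scores of Vamp5 were themselves spread, with the lowest in replicate 1 and the highest in the acinar- and stroma-rich replicate 4. Vamp8, a SNARE of late endosomes and of granules in blood cells, scored 1373, 658, 1030, and 930 in β cells against 1131, 1116, 1165, and 1195 in ECs and 1266, 1392, 1056, and 2187 in MΦs. Vamp4 of the trans-Golgi network was called only between ECs and MΦs (-1.24, limma adjusted p = 0.00376), and Vamp1 in no comparison.

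Most syntaxins varied little between the cell types, and those that did were mainly higher in MΦs or ECs. Of the 15, 6 were called in at least 1 comparison at No Dox. Stx7 of late endosomes scored 6049, 4268, 6151, and 5879 in MΦs, 2178, 1845, 1510, and 1652 in β cells and 1618, 1668, 2015, and 2035 in ECs, so that MΦs were above both (limma adjusted p = 7.7e-06 and 7.71e-06). Stx11, an immune cell syntaxin needed for cytotoxic granule release, scored 3226, 2159, 2927, and 1877 in MΦs, 475, 244, 363, and 286 in ECs and 1, 14, 203, and 422 in β cells. MΦs exceeded β cells (log2 fold change -5.95 ± 1.30 (SE), limma adjusted p = 0.00224 for β cells minus MΦs), while the β cell values themselves ran from the lowest possible score to that of the ECs, the higher values again in replicates 3 and 4. Stx2 was an EC syntaxin, with 3174, 2996, 3218, and 2895 in ECs, 341, 126, 354, and 1044 in β cells and 993, 1165, 544, and 1103 in MΦs (-3.11 for β cells minus ECs, limma adjusted p = 0.000296). Stx12 of recycling endosomes was 4459 on average in ECs against 1719 and 1726 (limma adjusted p = 3.34e-05 and 2.85e-05), and Stx16 of the trans-Golgi network 5374 in MΦs against 2266 and 1336 (limma adjusted p = 5.41e-05 and 1.19e-06).

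Stx1a, the plasma membrane partner of Snap25 in neurons and β cells, was not a β cell gene by its level here. It scored 94, 132, 275, and 369 in No Dox β cells against 709, 643, 693, and 692 in ECs and 32, 118, 1, and 42 in MΦs. Every EC sample lay above every β cell sample, although the difference of -1.85 (β cells minus ECs) did not pass (limma adjusted p = 0.144). Both were above MΦs apart from an overlap of β cell replicate 1 with MΦ replicate 2 (4.83 for ECs, limma adjusted p = 0.0018, and 2.97 for β cells, limma adjusted p = 0.0242). The call over MΦs in β cells was lost in 3 of 17 alternatives, with only both groups fitted and without β cell replicate 3 or 4. β cells scored 634, 267, 459, 430, and 199 after 1wk Dox and 547, 478, and 263 after withdrawal, where ECs scored 1378 (1 sample) and 691, 677, 765, 914, and 667. Stx4a, the more general plasma membrane syntaxin, scored 957, 964, 1028, and 1768 in β cells against 1656, 1652, 1967, and 1698 in ECs and 2107, 1569, 2401, and 2578 in MΦs and passed no call at No Dox. Stx3, Stx5a, Stx6, Stx8, Stx17 and Stx18, most of which serve the Golgi, endosomes or endoplasmic reticulum, were likewise not called, with group means between 1366 (Stx3 in ECs) and 4518 (Stx8 in MΦs).

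Among the Munc18 and related syntaxin-binding genes, Stxbp2 and Stxbp6 set ECs apart. Stxbp2 (Munc18-2), the partner of Stx11 in granule release by immune cells, scored 3222, 3048, 1930, and 1239 in β cells, 4477, 4318, 3630, and 4533 in MΦs and 76, 130, 85, and 74 in ECs. ECs were below both without overlap (log2 fold change 4.62 ± 0.29 for β cells minus ECs and -5.56 ± 0.29 for ECs minus MΦs, SE, limma adjusted p = 3.87e-07 and 3.66e-08). Stxbp6 (amisyn), which binds SNAREs through a VAMP-like domain, had the same order, with 4765, 5641, 3081, and 2233 in β cells, 4127, 3960, 5152, and 3855 in MΦs and 70, 105, 47, and 69 in ECs (limma adjusted p = 1.04e-07 and 3e-08). Stxbp4, which binds Stx4a, was instead lowest in MΦs, with means of 3174, 2022 and 614 in β cells, ECs and MΦs. Stxbp5 (tomosyn) was not called at No Dox. Stxbp3a (Munc18-3), whose symbol falls outside the rule, averaged 6267 in MΦs against 2363 in β cells and 2503 in ECs.

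Synaptotagmins, the largest family here, made up the largest block of genes above both others in β cells. Of 16 tested at No Dox, 9 were above both other cell types in β cells: Syt1, Syt2, Syt4, Syt5, Syt9, Syt10, Syt13, Syt14 and Syt16. Of all genes 13.9% had this pattern. Syt10 scored only 58, 39, 13, and 1 in β cells, with replicate 4 at the lowest possible score, and at most 2 elsewhere. Syt13, which lacks calcium binding, averaged 19219 ± 10690.4 (SD, n = 4) in β cells against 97.8 ± 20.8 in ECs and 315 ± 382 in MΦs. Syt14, also a form without calcium binding, scored 12541, 12186, 6218, and 2196 in β cells against 1, 5, 1, and 15 in ECs and 9, 128, 63, and 28 in MΦs (log2 fold change 10.58 ± 0.92 (SE), limma adjusted p = 3.33e-06, β cells minus ECs). Syt16, its close relative, scored 13915, 12779, 2931, and 1038, then 16, 6, 14, and 30 and 12, 176, 57, and 6 in the same order. In both genes the groups were far apart, with the β cell scores lowest in replicate 4.

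Further synaptotagmins followed at lower scores. Syt4 scored 7428, 7023, 2869, and 1280 in β cells against 18, 23, 2, and 19 in ECs and 19, 30, 64, and 1 in MΦs (log2 fold change 7.79 ± 1.06 (SE), limma adjusted p = 7.9e-05, β cells minus MΦs). Syt5 scored 1629, 737, 701, and 389, 1, 2, 7, and 2 and 1, 7, 1, and 1, and Syt9 1128, 1809, 930, and 678, 1, 4, 1, and 1 and 1, 37, 37, and 1, in that order of cell types (β cells minus MΦs, 8.07 and 6.93, limma adjusted p = 2.08e-06 and 0.000119). Both were at or near the lowest score outside β cells, where fold changes depend on the added constant. Syt7, a sensor with high calcium affinity that acts in insulin release, scored 8716, 7063, 4511, and 2265 in β cells against 1074, 811, 908, and 950 in ECs and 1, 295, 9, and 62 in MΦs. It was above MΦs in both other cell types (limma adjusted p = 0.000193 and 0.00326), and the difference between β cells and ECs did not pass at No Dox although the groups did not overlap (log2 fold change 2.43 ± 1.18 (SE), limma adjusted p = 0.109). Syt1, the sensor of fast neurotransmitter release, was listed at 1 in all 4 ECs and scored 57, 104, 530, and 501 in β cells and 1, 43, 16, and 1 in MΦs. Its higher β cell scores were those of the acinar- and stroma-rich libraries. Per kilobase of exon its mean score in β cells was 35.7, against 1192 for Syt4 and 809 for Syt7.

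Other synaptotagmins marked ECs or were low in them. Syt15, another form without calcium binding, scored 3003, 4260, 4558, and 3386 in ECs, 96, 84, 327, and 143 in β cells and 164, 275, 148, and 132 in MΦs, and ECs were above both (4.44 ± 0.40 over MΦs, SE, limma adjusted p = 2.87e-06). Syt3 scored 480, 409, 269, and 465 in β cells against 1, 36, 1, and 7 in ECs and 62, 214, 16, and 138 in MΦs, and ECs were below both (-3.68 for ECs minus MΦs, limma adjusted p = 0.00949). Syt11, which lacks calcium binding and is broadly expressed, scored 1764, 1334, 917, and 806, 499, 569, 525, and 560 and 1194, 800, 1338, and 1092 in β cells, ECs and MΦs, with ECs lowest by just over 2-fold against each. The call of Syt11 between ECs and MΦs fell to just under 2-fold (log2 -0.91 to -0.99) in 5 of 17 alternatives. Syt8 was listed at 1 in all 4 ECs and in 3 β cell samples, with 8 in replicate 4, and scored 10, 19, 11, and 47 in MΦs.

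Granule GTPases, with the effectors Sytl4 and Sytl5, were mostly higher in β cells than in ECs and MΦs as well. Rab27a, a GTPase of insulin granules and of lysosome-related granules, scored 8951, 8051, 3285, and 960 in No Dox β cells against 1220, 1044, 973, and 1106 in ECs and 1024, 937, 903, and 855 in MΦs. Replicate 4 overlapped the MΦ range and lay just below the ECs, and the differences were still called (log2 fold change 1.84 ± 0.55 (SE), limma adjusted p = 0.0154, β cells minus ECs, and 2.06 over MΦs, limma adjusted p = 0.00728). Rab3a scored 2154, 1126, 939, and 638 in β cells against 348, 341, 368, and 319 in ECs and 53, 165, 94, and 110 in MΦs, with no overlap between any pair of groups and all 3 differences called (limma adjusted p = 0.00438, 2.11e-05 and 0.00279). Rab3c was low outside β cells, with 1536, 3010, 1414, and 641 there against 4, 2, 7, and 2 in ECs and 1, 26, 145, and 6 in MΦs. Rab3b and Rab3d were also above both others in β cells, while Rab27b was not called. Sytl4 (granuphilin), the Rab27a effector that docks insulin granules, scored 9246, 10650, 3191, and 1860 in β cells against 29, 48, 17, and 12 in ECs and 3, 309, 2, and 38 in MΦs (log2 fold change 7.98 ± 1.27 (SE), limma adjusted p = 0.000247, β cells minus MΦs). Sytl5 was likewise highest in β cells, with means of 7773, 49.8 and 301, of which the last rested on 1042 in the acinar-rich MΦ replicate 2.

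Of the other Rab27 effectors, Sytl1 was highest in ECs and Sytl3 in MΦs. Sytl1 scored 3157, 1657, 1966, and 2049 in ECs, 1202, 485, 613, and 838 in β cells and 464, 609, 528, and 518 in MΦs, with ECs above both (limma adjusted p = 0.000747 and 8.96e-05). Sytl3 scored 887, 1056, 2443, and 1602 in MΦs, 319, 223, 137, and 76 in β cells and 36, 46, 22, and 69 in ECs, and all 3 differences were called, the largest between ECs and MΦs (log2 fold change -5.08 ± 0.51 (SE), limma adjusted p = 7.04e-06). Sytl2 had its highest mean in β cells, where it scored 1, 42, 313, and 587, and was not called at No Dox. The synaptotagmin-like family had 2 called genes highest in β cells (Sytl4 and Sytl5), with Sytl1 highest in ECs and Sytl3 in MΦs.

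Munc13 genes were divided as well. Unc13a (Munc13-1), the main priming factor of synapses and β cells, scored 3784, 3398, 2138, and 1286 in β cells against 245, 194, 239, and 181 in ECs and 628, 571, 988, and 528 in MΦs, with 3 separate levels (log2 fold change 3.51 ± 0.33 (SE), limma adjusted p = 5.71e-06, β cells minus ECs). Unc13b (Munc13-2) averaged 8862 ± 4099.5 (SD, n = 4) in β cells against 1087 ± 194 in ECs and 780 ± 514 in MΦs, of which MΦ replicate 2 alone scored 1523. Unc13d (Munc13-4), which primes granules in blood cells, scored 671, 607, 418, and 1038 in MΦs, 176, 131, 171, and 170 in β cells and 156, 120, 123, and 159 in ECs, and every MΦ sample was above the rest (limma adjusted p = 0.000142 and 7.02e-05). Unc13c averaged 1173, 1506 and 1460.5 and was not called. Among complexins, Cplx2 scored 17033, 18162, 9006, and 4409 in β cells against 1682, 1864, 1469, and 1544 in ECs and 51, 365, 164, and 43 in MΦs, again at 3 levels without overlap (limma adjusted p = 0.00417 and 0.000317). Cplx1, like Stx2 below both others in β cells, had means of 75, 191 and 265, where β cell replicate 4 at 181 overlapped both others.

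**Figure D2:**
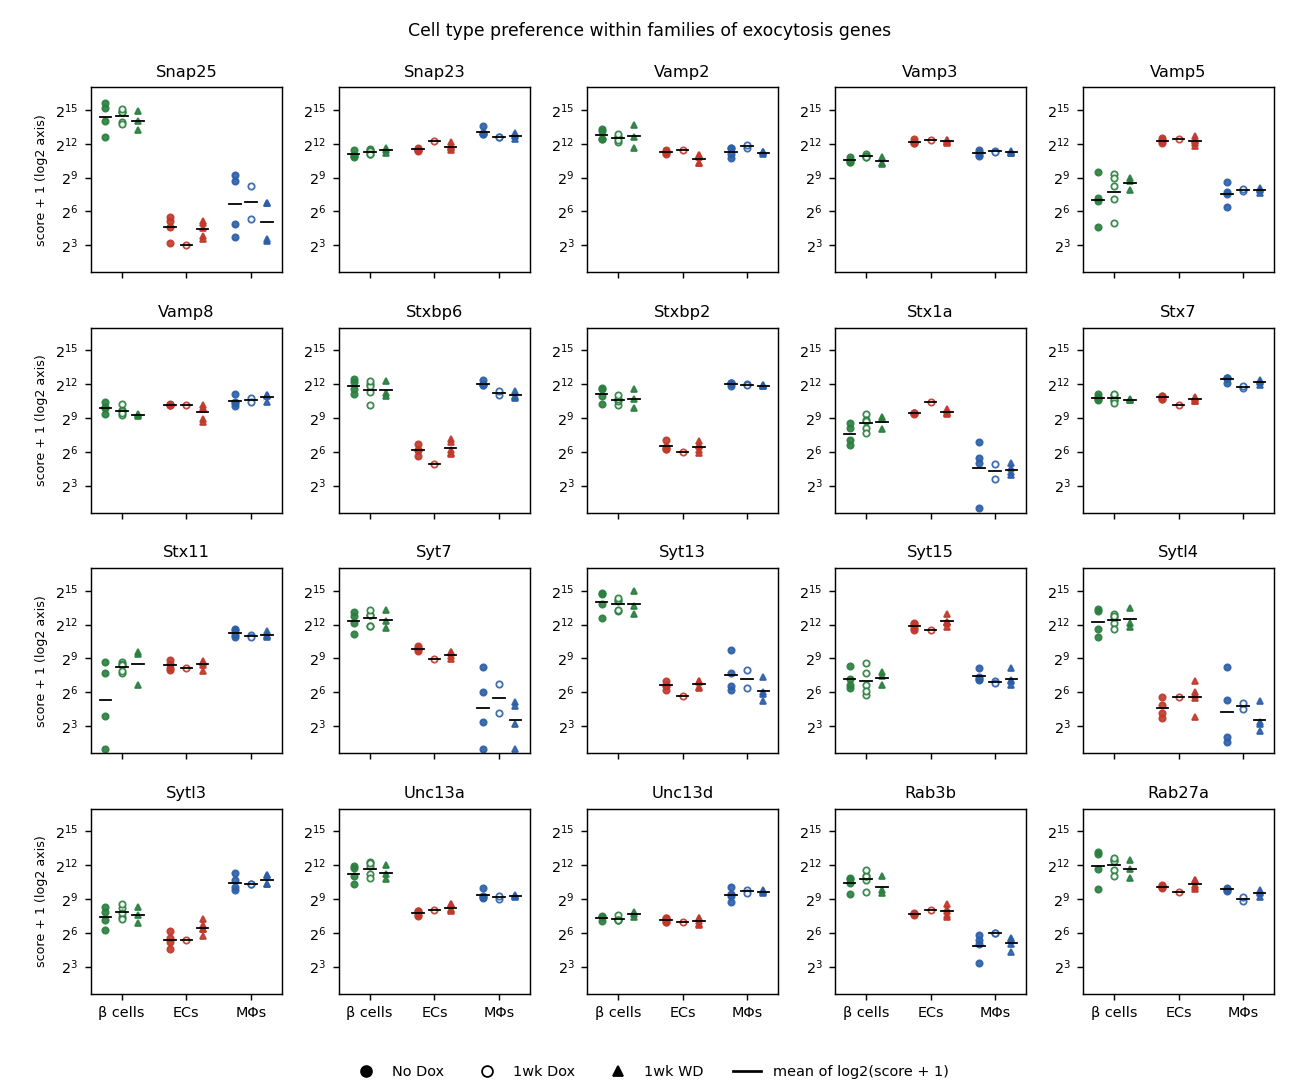
Scores of 20 members in every sample (score + 1, log2 axis), by cell type (green β cells, red ECs, blue MΦs) and time point (symbols), with bars at the mean of log2(score + 1). Snap25, Syt13 and Sytl4 stand highest in β cells, Vamp5 and Syt15 in ECs, Snap23, Stx7, Sytl3 and Unc13d in MΦs, while Stxbp2 and Stxbp6 are low in ECs.

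Sorted by pattern at No Dox, 21 of 63 members were above both other cell types in β cells, beside 13.9% of all genes. In ECs 6 were above both others (Stx2, Stx12, Syt15, Sytl1, Vamp3, Vamp5), beside 8.19%, and in MΦs 6 (Snap23, Stx7, Stx16, Syt8, Sytl3, Unc13d), beside 10.9%. β cells were below both others in 2 members (Cplx1 and Stx2), beside 7.00%, ECs in 7, beside 7.00%, and MΦs in 8, beside 7.77%. Another 18 members were called in no comparison, beside 40.5% of all genes. The 1wk WD samples, which share none with No Dox, gave the same comparisons again. Between β cells and ECs 37 of 61 members were called there, beside 39.9% of all genes, and 32 of them were also called at No Dox in the same direction, or 97.0% of the No Dox calls and 86.5% of the 1wk WD calls (75.2% and 70.7% over all genes). Between β cells and MΦs 38 members were called at 1wk WD, beside 46.2%, of which 30 were shared (88.2% and 78.9%, beside 79.8% and 74.2% over all genes), and between ECs and MΦs 27, beside 40.3%, of which 20 were shared (71.4% and 74.1%, beside 83.9% and 69.4%). No member was called in opposite directions. Of the 21 genes above both others in β cells at No Dox, 20 were so at 1wk WD, and Syt10, at a mean under 20 in every group there, was not tested. Rab27b, Syt3, Syt7 and Sytl2 were among those that joined them at 1wk WD. Vamp8, Stx11 and Stxbp2 were called above both others in MΦs at 1wk WD, and at No Dox 1 or both of these calls was missed although every MΦ sample of Stx11 and Stxbp2 was above the rest there too. Vamp8 scored 1374, 2149, 1925, and 2072 in MΦs, 627, 574, and 667 in β cells and 911, 1128, 396, 480, and 968 in ECs at 1wk WD, and no change between time points was called for these 3 genes.

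The sources used here do not say whether scores were scaled to gene length, so levels of different members are given both per kilobase of exon and as deposited. In No Dox β cells the highest per kilobase were Syt13 at 5110.0, Syt14 at 4308 and Snap25 at 4055 (mean score per kilobase). As deposited they were Snap25 at 27538, Syt13 at 19219 and Cplx2 at 12152 (mean score). ECs were led per kilobase by Vamp5 at 3015, Stx5a at 1771 and Vamp3 at 1597, and as deposited by Stxbp5 at 7663, Vamp5 at 4969 and Vamp3 at 4613. MΦs were led per kilobase by Stx7 at 2235, Snap23 at 2059.9 and Stx16 at 1354, and as deposited by Snap23 at 8843, Stx7 at 5587 and Stx16 at 5374. The leading member thus depended on the scale in each cell type, while Snap23 in MΦs was below Snap25 in β cells on both. Exon bases of 13 members are shared with a gene on the opposite strand, among them Rab3a, Rab3b, Stx4a, Syt4, Syt7 and Sytl3. As the sources used here do not state stranded counting, reads of such pairs cannot be told apart.

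Sequence around the start sites was read for 50 of the members (RefSeq, GRCm38.p6, 63 windows from 250 bases before to 50 bases after a start). The upstream 250 bases are shown for 3 members of different patterns, Syt14 (β cells highest), Vamp5 (ECs highest) and Stxbp2 (ECs lowest), with matches to the GC box CCCCGCCC or the E-box CACGTG on either strand in capitals.
Syt14, chr1:193035776-193036025, minus strand: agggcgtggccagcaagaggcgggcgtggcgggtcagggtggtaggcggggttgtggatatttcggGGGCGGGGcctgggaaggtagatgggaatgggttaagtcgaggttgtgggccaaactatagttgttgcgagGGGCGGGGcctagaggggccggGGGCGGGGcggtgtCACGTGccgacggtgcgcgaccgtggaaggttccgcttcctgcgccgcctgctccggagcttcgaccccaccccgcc
Vamp5, chr6:72380469-72380718, minus strand: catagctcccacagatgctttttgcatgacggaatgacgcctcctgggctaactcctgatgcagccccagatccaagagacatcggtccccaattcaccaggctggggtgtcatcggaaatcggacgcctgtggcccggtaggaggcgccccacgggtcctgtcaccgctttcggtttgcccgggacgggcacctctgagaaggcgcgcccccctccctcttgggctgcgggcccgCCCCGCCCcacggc
Stxbp2, chr8:3630859-3631108, plus strand: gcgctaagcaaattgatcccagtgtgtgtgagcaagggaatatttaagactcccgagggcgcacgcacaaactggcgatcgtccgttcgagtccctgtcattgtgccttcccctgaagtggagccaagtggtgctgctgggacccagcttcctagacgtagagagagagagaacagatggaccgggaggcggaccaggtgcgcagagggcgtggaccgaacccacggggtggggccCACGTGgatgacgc
The Syt14 stretch held 3 GC boxes and an E-box, that of Vamp5 a GC box 14 bases before the start, and that of Stxbp2 an E-box 14 bases before it. Of the members' windows 39.7% held a GC box (23 members), against 17.6% of all 32851 windows, and the E-box stood in 14.3% of the members' windows (8 members) and 7.15% of all windows. The left and right parts of the RE1 element, TTCAGCACC and GGACAGC, which the neuronal gene repressor REST binds, lay together in 1 member, Unc13a, and in 14 windows of all, or 0.0426%. In Unc13a they lay 8 to 31 bases after the start with 8 bases between them, and the capitals mark both parts, which here read on the opposite strand.
Unc13a, chr8:71671727-71671750, minus strand: GCTGTCCgcgcccccGGTGCTGAA
These matches describe the letters of the windows only, and binding was not measured. The TATA box TATAAA stood in 4.76% of the members' windows (3 members) and 13.6% of all windows. The PU.1-type motif GAGGAAGT and the cyclic AMP response element TGACGTCA were in no member's window and in 3.20% and 1.79% of all windows.

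Between time points, no member was called in β cells. At 1wk Dox 0 of 62 members passed, beside 0.0122% of all genes (limma), with 2 members, Stx11 and Syt12, at a fold change of at least 2 and an unadjusted p under 0.05 (beside 4.04% of all genes). At 1wk WD it was 0 of 62 beside 0%, with 1 such member, Stx2 (beside 4.45%). From 1wk Dox to withdrawal it was 0 beside 0%, with none such (beside 2.88%). The median member had a change of -0.02 with Dox and -0.02 after withdrawal (log2), where it was 0.03 and 0.06 over all genes. Snap25 scored 15817, 29227, 28594, 13390, and 34663 with Dox and 9763, 16258, and 30376 after withdrawal, within the No Dox range, and its change at 1wk Dox was 0.12 (95% interval -1.16 to 1.40, limma adjusted p = 0.983). Sytl4 changed by 0.16 (95% interval -1.01 to 1.32), Vamp2 by -0.29 (-1.07 to 0.49) and Rab27a by 0.06 (-1.30 to 1.43). These intervals are wide: that of the change lay within 2-fold in either direction for 21 of 62 members with Dox and 16 of 62 after withdrawal, so that for the others a change of 2-fold or more lay within the interval.

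Without the acinar-rich β cell replicates 3 and 4, chosen after the data were seen, 3 members (4.84%) were called at each time point, namely Stx2, Sytl2 and Stx11, beside 7.36% of all genes with Dox and 8.74% after withdrawal. The members' share was thus below that of all genes. Stx11 scored 1, 14, 203, and 422 without Dox, 402, 369, 214, 338, and 234 with it and 763, 655, and 99 after withdrawal, and Sytl2 1, 42, 313, and 587, then 276, 102, 447, 245, and 486 and 698, 495, and 122. Stx2 scored 341, 126, 354, and 1044, then 827, 452, 562, 726, and 537 and 822, 883, and 814. In Stx11 and Sytl2 the low No Dox values were those of replicates 1 and 2, the libraries with the lowest stromal markers, and the part of stromal RNA in the difference was not tested. For Stx2 replicate 1 was close to the stroma-rich replicate 3.

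**Figure D3:**
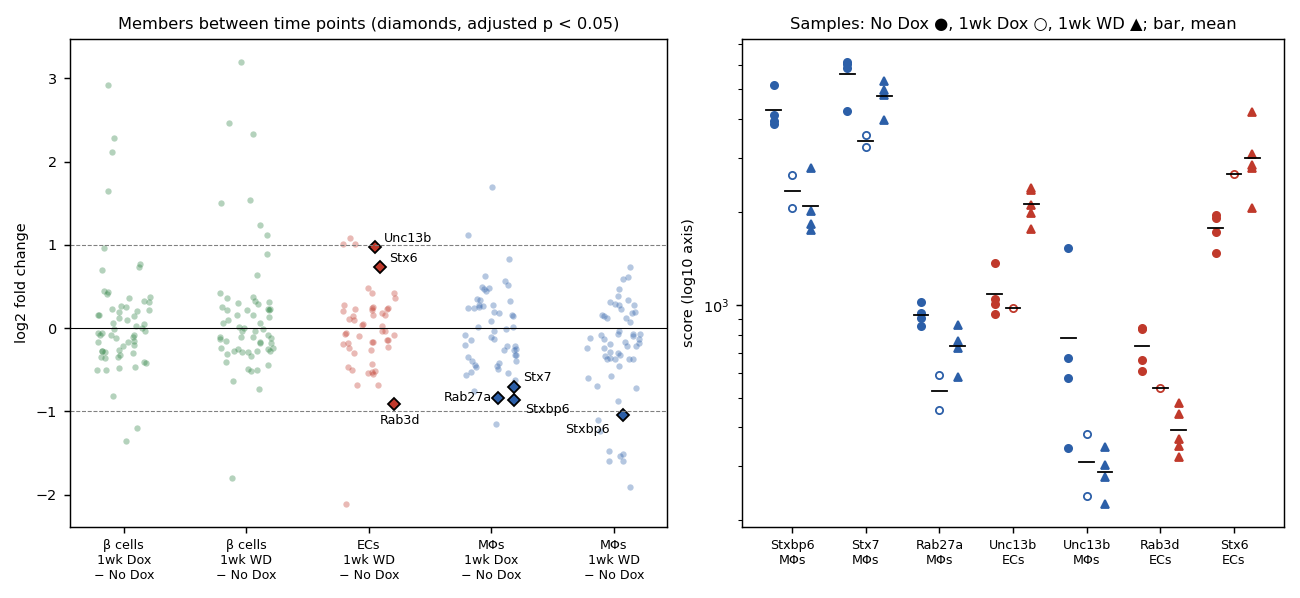
Left, log2 fold change of each tested member between time points (dots, with diamonds at a limma adjusted p under 0.05 and dashed lines at a 2-fold change); right, scores (log10 axis) of the members marked by diamonds, and of Unc13b in MΦs, in every sample with bars at the mean. Stxbp6 in MΦs is the diamond beyond the 2-fold line, and Unc13b is higher in 1wk WD than in No Dox ECs.

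In ECs 0 of 53 members were called at 1wk WD, beside 1.76% of all genes (limma), with 2 at a fold change of at least 2 and an unadjusted p under 0.05 (Sytl3 and Sytl5, beside 4.79% of all genes). At any fold change 3 members passed the adjusted p, each at less than 2-fold, beside 3.90% of all genes. Unc13b (mm9 chr4:43071825-43277745) scored 1003, 1370, 933, and 1042 at No Dox and 1756, 1982, 2352, 2393, and 2104 at 1wk WD, with every 1wk WD sample higher (log2 fold change 0.97 ± 0.14 (SE), limma adjusted p = 0.00423), just short of 2-fold. Rab3d, an exocytic Rab of secretory granules, scored 660, 841, 833, and 609 and then 443, 480, 366, 321, and 349, lower throughout (log2 fold change -0.91 ± 0.17 (SE), limma adjusted p = 0.0154). Stx6 of the trans-Golgi network scored 1918, 1725, 1477, and 1962 and then 2832, 2068, 3079, 4205, and 2778 (log2 fold change 0.73 ± 0.17 (SE), limma adjusted p = 0.0372), again without overlap. Marker lists of other cells moved between these EC groups, as 8 acinar markers made up 0.186% to 4.63% of the signal at No Dox and 0.00216% to 0.187% at 1wk WD, and the mean log2 of the pericyte and stromal markers was 6.2 to 7.0 and then 7.2 to 9.0. That of the EC markers was 15.3 to 15.5 at No Dox and 15.0 to 15.2 at 1wk WD. Rab3d was also high in the acinar-rich MΦ replicate 2, at 2393, and the part of acinar and stromal RNA in these 3 differences was not tested. Spread between EC samples was small, and 36 of 53 intervals lay within 2-fold. The EC-high genes Vamp5 and Vamp3 changed by -0.03 (95% interval -0.40 to 0.33) and 0.03 (-0.18 to 0.25).

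The single EC sample at 1wk Dox allowed no test. Against the No Dox mean 8 of 53 members were past 2-fold, beside 10.7% of all genes, 5 higher (Stx1a, Sytl4, Cplx2, Rab27b, Syt4) and 3 lower (Sytl5, Snap25, Stxbp6). Stx1a scored 1378 there against 643 to 709 at No Dox and 667 to 914 at 1wk WD, and Cplx2 3374 against 1469 to 1864 and 1037 to 1728. The other 6 had No Dox means of at most 72.8. With 20 added to each score only Cplx2 and Sytl5 remained past 2-fold, and Stx1a fell just under it.

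In MΦs 1 member was called. Stxbp6 (mm9 chr12:45953475-46175480) scored 4127, 3960, 5152, and 3855 without Dox, 2060 and 2633 with it and 2773, 1746, 2018, and 1830 after withdrawal, and every later sample was below every No Dox sample. The decrease at 1wk WD was called (log2 fold change -1.05 ± 0.16 (SE), limma adjusted p = 0.0143), 1 of 58 members beside 0.626% of all genes. At 1wk Dox the decrease was under 2-fold (log2 fold change -0.87 ± 0.20 (SE), limma adjusted p = 0.0327). In ECs Stxbp6 scored at most 139, and in β cells it scored 2486, 4076, 3717, 1135, and 5118 with Dox and 2012, 2431, and 5118 after withdrawal. At 1wk Dox 0 of 58 members were called, beside 2.26%, with 1 (Unc13b) at a fold change of at least 2 and an unadjusted p under 0.05 (beside 6.55%). Without the acinar-rich No Dox replicate 2 it was 0 of 59, beside 3.28%, so the share of all genes depended on single samples. At any fold change 3 of 58 passed the adjusted p with all samples, Stxbp6, Stx7 and Rab27a, each at less than 2-fold, beside 4.58% of all genes. Stx7 scored 3248 and 3553 against 6049, 4268, 6151, and 5879 at No Dox (log2 fold change -0.70 ± 0.17 (SE), limma adjusted p = 0.0407), and Rab27a 457 and 591 against 1024, 937, 903, and 855 (log2 fold change -0.83 ± 0.21 (SE), limma adjusted p = 0.0427). The 1wk Dox group had 2 samples, both of the separate column number series, which cannot be told apart from Dox here. From 1wk Dox to withdrawal 0 of 58 members were called, beside 0.0866%, with none at 2-fold and an unadjusted p under 0.05 (beside 1.82%). Marker lists moved between the MΦ groups as well. The mean log2 of the MΦ markers was 14.1 to 14.6 at No Dox, 14.9 to 15.2 with Dox and 14.8 to 14.9 after withdrawal, and that of T, B and NK cell markers 5.5 to 6.5, 5.4 to 6.0 and 6.5 to 7.8. Platelet and erythroid markers summed to scores of 707 to 1443, 3169 to 6364 and 2959 to 3578, and acinar markers made up 0.0707% to 20.5%, 0.00255% to 0.00975% and 0.00425% to 0.581% of the signal. The part of these other cells in the MΦ differences was not tested. Leaving out the acinar-rich MΦ replicate 2 kept the call of Stxbp6 at 1wk WD, while the call was lost without No Dox replicate 3 or any of 1wk WD replicates 2, 3 and 4 (log2 fold change -0.95 to -1.04).

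Whether the response differed between cell types was tested directly. The 1wk WD change of Unc13b was higher in ECs than in MΦs by 2.21 ± 0.42 (log2, SE, limma adjusted p = 0.013), the only member of 59 called, beside 1.40% of all genes. Unc13b in MΦs scored 344, 1523, 674, and 579 at No Dox and 277, 225, 302, and 345 at 1wk WD, so that the EC samples were higher after withdrawal without overlap, and the MΦ samples were lower with an overlap of No Dox replicate 1 (344) and 1wk WD replicate 4 (345). MΦ No Dox replicate 2, at 1523, was the acinar-rich library, and without the 3 such libraries the difference was 1.82 (limma adjusted p = 0.00481). No member was called between β cells and MΦs at 1wk WD (0% of all genes), between β cells and ECs at 1wk WD (0.0913%) or between β cells and MΦs at 1wk Dox (0%) by limma, with 1, 3 and 1 members at a fold change of at least 2 and an unadjusted p under 0.05 (beside 4.32%, 7.31% and 3.18% of all genes). The intervals were wide, and in that order 12 of 63, 16 of 62 and 12 of 63 lay within 2-fold. Without the 3 acinar-rich libraries these responses had 1 (Stx11), 10 and 2 (Stx11 and Syt5) called members, beside 8.15%, 16.5% and 6.31% of all genes, and the 10 included Unc13b, whose change was lower in β cells than in ECs (-1.74, limma adjusted p = 0.00424). In percent of the members tested these were 1.59%, 16.1% and 3.17%, none above the share of all genes.

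Within β cells the members differed between samples of the same time point. The median SD of the members' log2(score + 1) was 0.720 without Dox, 0.525 with it and 0.660 after withdrawal, where it was 0.557, 0.479 and 0.586 over all genes, and in No Dox ECs it was 0.171 against 0.186. Over the 12 β cell samples Snap25 ran from 6162 (No Dox replicate 4) to 49801 (No Dox replicate 2), Syt13 from 6301 (No Dox replicate 4) to 32562 (1wk WD replicate 3) and Rab27a from 960 to 8951, also lowest in No Dox replicate 4. That library had the lowest mean of the β cell markers. Taking the mean log2 of the β cell markers from each sample lowered the SD of Snap25 from 0.886 to 0.471, of Syt13 from 0.763 to 0.473 and of Rab27a from 0.959 to 0.406. It lowered the SD of 13 of the 61 members with a mean score of at least 20 over these samples, and of 10 of the 20 among them that were above both other cell types in β cells. The SD of the others rose, from 0.538 to 0.757 for Vamp2 and from 0.638 to 0.726 for Unc13a, both higher in β cells, and from 0.225 to 1.12 for Stx16 and from 0.258 to 1.17 for Snap23. Stx11, at an SD of 2.49, was the most variable of the 61 and rose to 3.44.

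**Figure D4:**
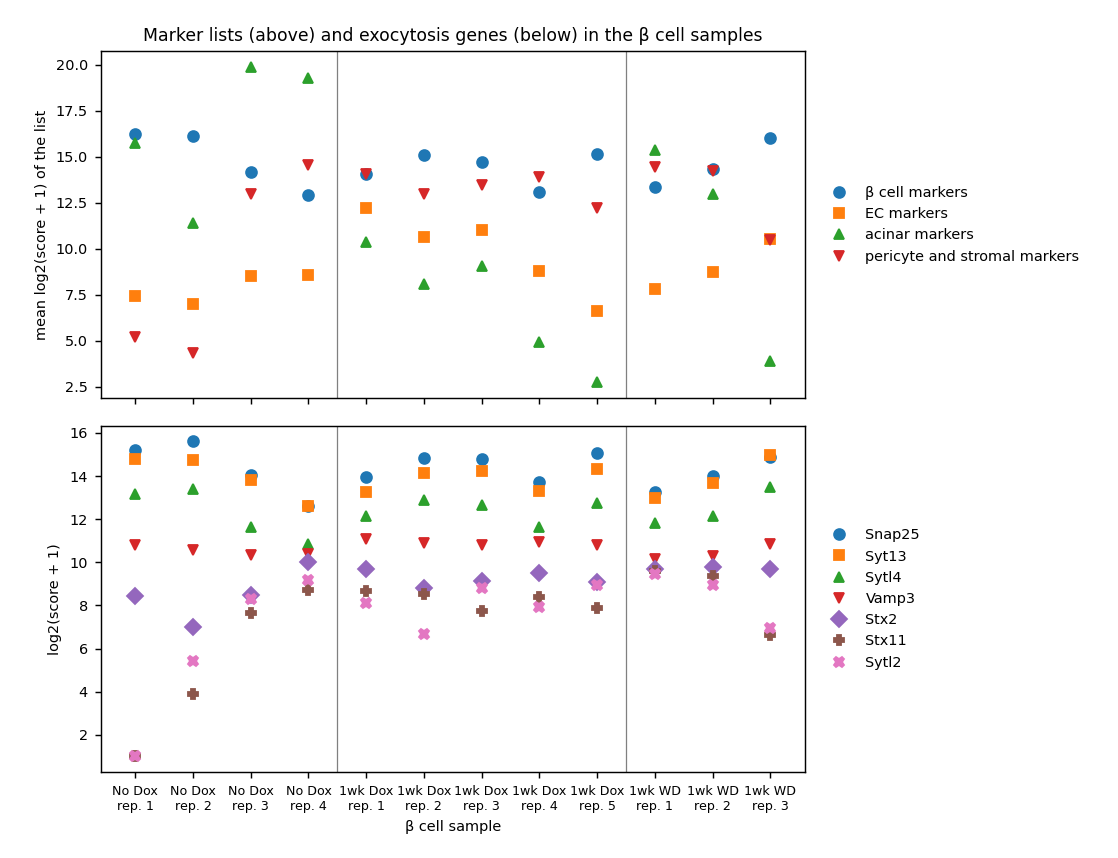
Mean log2(score + 1) of 4 marker lists (above) and log2(score + 1) of 7 members (below) in each of the 12 β cell samples, with vertical lines between time points. Snap25, Syt13 and Sytl4 are low in samples with low β cell markers, while Stx11 and Sytl2 are lowest in No Dox replicates 1 and 2, which have the lowest stromal markers.

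Partner genes outside the families were taken from lists of the same pathway. Of 15 active zone and priming genes, which tether vesicles at the release site, 12 were higher in No Dox β cells than in ECs and none lower (beside 21.2% and 16.5% of all genes), and 11 were higher and 1 lower than in MΦs (beside 23.5% and 19.7%), with median differences of 5.51 and 5.36 (log2). Pclo averaged 56119 against 110 in ECs, Cadps (CAPS1) 36006 against 27.5 and Rimbp2 28338 against 17.2, while the exception, Ppfia4, averaged 91 against 2072 in MΦs. Of 14 tested vesicle proteins and other C2 domain calcium sensors 8 were higher and 3 lower in β cells than in ECs. Synpr, a synaptophysin relative, averaged 25126 against 5, and Dysf, a membrane repair protein, 364 against 23208. Of 14 Rab3 and Rab27 effectors and regulators 5 were higher and 2 lower, with Exph5 at 8424 against 50.5 and Rph3al (Noc2) at 15858 against 924 but Myrip at 821 against 9205. Of 20 genes of SNARE disassembly and other SNARE partners 5 were higher and none lower in β cells than in ECs, a share higher close to that of all genes, and of 9 exocyst subunits, which tether vesicles in many cell types, none was higher and 3 were lower. Exoc6 averaged 1021 against 6189 in MΦs. Between time points no gene of these lists was called in β cells or MΦs, and in ECs at 1wk WD 3 were, beside 1.76% of all genes: Cadps2 (1.42), Ppfia2 (2.45, from low scores) and Myof (1.42, log2).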

How the data were processed

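The study sorted β cells, ECs and MΦs from islets of RIP-rtTA; TetO-VEGF-A; MIP-GFP mice and sequenced amplified RNA. Per the labels and the study's methods, the authors aligned reads to mm9 with TopHat2 2.0 and normalized gene counts by trimmed mean of M values in Avadis NGS. The deposited table holds 1 normalized expression score per gene and sample, with whole numbers from 1, and the authors' rounding and any scaling to gene length are not given in the sources used here. These are not raw counts, so no count test was run, and the sequencing depth behind each score is unknown. Of 38 sample columns, 6 that no label matched were not used. No 2 samples were identical.

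Members and gene lists were chosen with earlier results of these data known. Scores were analysed as log2(score + 1) in R 4.3.3 with limma 3.58.1 (lmFit, then eBayes with a trend), keeping genes whose mean reached 20 in some fitted group, after the study's own minimum. Benjamini-Hochberg adjusted p-values were taken over all genes tested, and calls needed 0.05 and a 2-fold change. Fits between time points used all samples of a cell type (for ECs without the single 1wk Dox sample), fits between cell types all samples of No Dox or of 1wk WD, and differences in response the interaction of both. The fits were tested on simulated data. There 60.6% of 4-fold changes were recovered in β cells at 1wk Dox and 57.6% at 1wk WD, each against No Dox. For the response of β cells it was 43.9% (against MΦs, 1wk WD), 51.8% (against ECs, 1wk WD) and 38.5% (against MΦs, 1wk Dox). Every member could be named except 2, which are counted but not reported here, and sample values were given for the called members between time points, the 5 with the largest differences in each direction per cell type comparison at No Dox among those without overlap, and genes of granule release with their relatives. Exon lengths came from GENCODE, which held all 65 members, 63 of them with the table's coordinates, and start site windows from RefSeq (Python 3.11.15). Same-numbered samples did not deviate together: 10 of 44 pairs had a correlation over 0.1, so replicate numbers were not taken as pairs. Alternatives were another pseudocount (20), filter (200 or none), scaling, no trend, sample weights, only the groups compared, a replicate block, each sample left out, and, added after the data were seen, the 3 acinar-rich libraries left out and the β cell marker mean as a covariate.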

Additional observations from a re-analysis of the deposited data

Results flagged for a closer look

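In 195 groups of 4 or 5 samples of a member, 10 had 1 sample apart from the others by Dixon's test, which chance gives in about 1 of 20. In MΦs at No Dox, Snap23 scored 12107 in replicate 3 (others 7658 to 7948), Stx7 4268 in replicate 2 (5879 to 6151) and Syt5 7 in replicate 2 (1 in the others). In β cells at No Dox, Stx4a scored 1768 in replicate 4 (957 to 1028), Syt8 8 in replicate 4 (1 in the others) and Unc13d 131 in replicate 2 (170 to 176). In ECs at No Dox, Stx4a scored 1967 in replicate 3 (1652 to 1698), Syt4 2 in replicate 3 (18 to 23) and Syt9 4 in replicate 2 (1 in the others), and at 1wk WD Syt9 scored 23 in replicate 4 (1 in the others). The acinar-rich libraries, β cell replicates 3 and 4 and MΦ replicate 2 at No Dox, held 4 of these 10. The 1wk WD response of Unc13b differed between ECs and MΦs by 2.21 (log2, limma adjusted p = 0.013).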

How the results depend on the processing

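Under the alternatives 300 counts of called members stayed within 1.5 times the reported count and 16 did not. Without the 3 acinar-rich libraries 3 members were called in β cells at 1wk Dox and 3 at 1wk WD, 1 in the 1wk WD response of β cells against MΦs (Stx11), 10 in that of β cells against ECs, and 2 in the 1wk Dox response of β cells against MΦs, beside 7.36%, 8.74%, 8.15%, 16.5% and 6.31% of all genes in that order. The response of β cells against ECs also gave 1 with sample weights. Stxbp6 at 1wk WD in MΦs, 1 call, became 0 with no filter and 0 with no trend. With a pseudocount of 20 the single EC sample at 1wk Dox had 2 members past 2-fold. Leaving out each sample in turn gave 0 to 1 calls for ECs and for MΦs at 1wk WD (1 in ECs, Unc13b, without No Dox replicate 2 or 1wk WD replicate 1), 0 to 1 for the response of β cells against ECs (1 without β cell No Dox replicate 4), 7 to 9 for the single EC sample, and between cell types at No Dox 31 to 34 (β cells and ECs), 32 to 36 (β cells and MΦs) and 26 to 27 (ECs and MΦs). The cause of these moves was not tested beyond the samples named. Of 100 results on single members 86 kept their direction and side of the threshold under every alternative and none reversed. Stx1a between β cells and MΦs passed neither with only both groups fitted nor without β cell replicate 3 or 4.

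Replicate numbers were those of the sample titles, and some column headers of the table carried other numbers. The numbers of the titles did not pair the samples, and own numbers correlated best in 12 of 44 cases. With the replicate block the number of called members was 33, 36 and 28 between cell types at No Dox and 34, 38 and 27 at 1wk WD, 0 between time points except 1 in MΦs at 1wk WD, and Unc13b differed between ECs and MΦs by 2.21 (limma adjusted p = 0.0222). Precision was limited by 2 to 5 samples per group tested and by scores near 1, where fold changes rest on the pseudocount.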
